A study of Capra hircus with 4 samples.

Results

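The exocrine duct of the goat pancreas was examined through 10 genes that carry bicarbonate, chloride, sodium and water across its epithelium or start that secretion. They were chosen by gene symbol: CFTR, SLC4A4, SLC26A3, SLC26A6, AQP1, AQP5, CA2, SLC12A2, ATP1B1 and SCTR. Of the 10 symbols, 9 have a row of their own among the 27137 genes of the deposited table, and CA2, a carbonic anhydrase, was not analysed here. Gene names are the symbols paired with IDs in the deposited list, and all 9 IDs carry the same symbol in the RefSeq table of assembly ARS1.2.

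The duct rinses the enzymes made by acinar cells out of the pancreas with a fluid rich in bicarbonate. The hormone secretin binds its receptor SCTR on duct cells and raises cyclic AMP, which opens the apical chloride channel CFTR. Bicarbonate enters the cell at the base through SLC4A4, a sodium-bicarbonate cotransporter, or is made inside it by carbonic anhydrase, and leaves at the apex through CFTR and the chloride-bicarbonate exchangers SLC26A3 and SLC26A6. SLC12A2 loads chloride from the blood side, the sodium pump, of which ATP1B1 is a beta subunit, maintains the ion gradients, and the channels AQP1 and AQP5 let water follow.

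Pancreas was dissociated from 4 female Liuyang black goats that the labels describe as twins, 2 aged 6 months, when they ruminate, and 2 aged 10 days, before they do. Single cells were captured with 10x Genomics 3' version 3 chemistry, which counts transcripts by unique molecular identifiers (UMIs). The deposited matrix joins 4 libraries of 43297855, 82817057, 65937591 and 55223412 UMIs, numbered 1 to 4 in their barcodes, and which goat gave which library is not stated. The libraries were left without an age, no age comparison was made, and every comparison below sets classes of cells against each other inside a library, with no p-value.

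Cell calling and clustering left 13216 cells, of which 12653 fell into 7 classes named from markers, and 498 of these were ductal-like. Ductal-like cells numbered 60, 179, 248 and 11 in libraries 1 to 4, with 540928, 2483725, 2579550 and 175576 UMIs. The 11 cells of library 4 were too few for a ratio and its values are given as they stand. In each library 21 to 24 of the 27 duct markers were seen in at least 10% of the ductal-like cells. The class also carried acinar enzyme RNA: 9 enzyme genes held 1.74%, 4.40%, 3.18% and 0.0103% of its UMIs in libraries 1 to 4, against 27.7%, 9.92%, 10.8% and 23.3% in acinar-like cells. Cells with at least 5% enzyme UMIs numbered 3, 42, 38 and 0, so the calls over other classes and the levels in duct clusters were also computed without them. The 10 symbols and 138 further pathway genes were kept out of the clustering.

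Levels are given as UMIs of a gene per 1000000 UMIs of the class (CPM). The call of a difference required a log2 ratio of CPM + 1 of at least 1, or at most -1, in every library with at least 20 cells in both classes, with at least 20 UMIs in the higher class. A gene counted as measured only where 1 of the classes compared held at least 20 UMIs of it in every library used. Against all other named cells, 4 of the 7 measured genes were higher in ductal-like cells (CFTR, SLC4A4, SCTR and ATP1B1) and 0 were lower, where 5.11% of the 13503 genes tested were called higher by the same rule. SLC26A3 and AQP5 were not measured. A gene can reach the UMI minimum through the duct alone, so the number measured is itself tied to the duct level. The median log2 ratio of the 7 was 2.26, beside 0.43 over all genes tested. After each ratio was centred on that median, 3 of the 7 stayed called and ATP1B1 did not, with a centred median of 1.82 and 0.81 in library 1, beside a background of 3.10%.

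**Figure D1:**
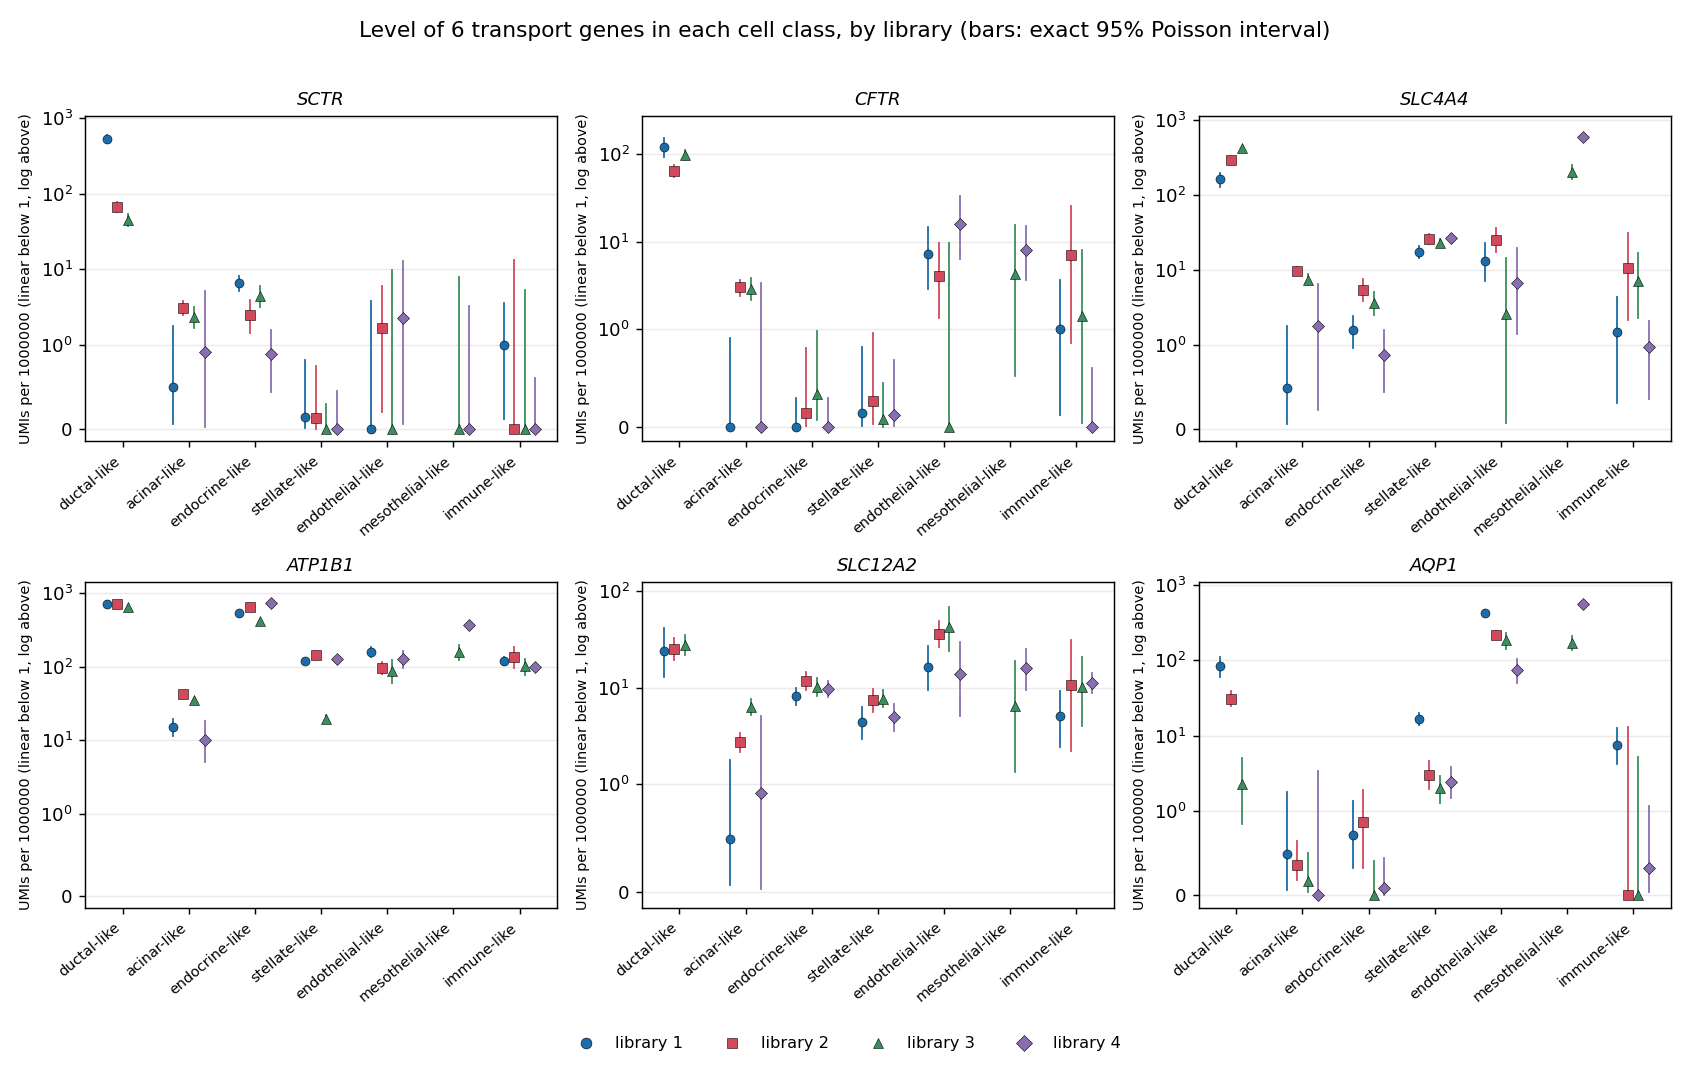
CPM of 6 transport genes (y axis, linear below 1 and logarithmic above) in each cell class (x axis), with a symbol per library of at least 20 cells and its exact 95% Poisson interval. CFTR in ductal-like cells, at 64.0 to 120 CPM, lies above every other class, whereas SLC4A4 and AQP1 are also high in mesothelial-like cells and ATP1B1 in endocrine-like cells.

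SCTR, the secretin receptor, was found in the duct and in a cluster of the islet. Ductal-like cells held 538, 67.2 and 45.4 CPM in libraries 1 to 3 and 678 CPM in library 4. Acinar-like cells held 0.494, 3.07, 2.33 and 0.921 CPM. The 2 classes did not overlap. Libraries 1 and 4 were far above libraries 2 and 3 within the duct. Ductal-like over all other named cells, the log2 ratio of SCTR had a median of 4.30 (range 3.95 to 6.97). Mesothelial-like cells had 0 UMIs of the gene and stellate-like cells had 2. At a common depth of 3000 UMIs per cell, an SCTR UMI was found in 73.3%, 12.8% and 10.9% of ductal-like cells in libraries 1 to 3, against at most 0.0973% of stellate-like cells. Before thinning, the median depth was 6254 to 8458 UMIs in those ductal-like cells and 4879.5 to 8054.5 UMIs in stellate-like cells.

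CFTR, the chloride and bicarbonate channel whose loss causes cystic fibrosis in humans, had the highest median ratio of the measured genes. It had 120, 64.0 and 98.5 CPM in ductal-like cells of libraries 1 to 3 and 79.7 CPM in library 4, whereas acinar-like cells had 0, 3.01, 2.90 and 0 CPM. The lowest duct library was above the highest library of every other class, whose maximum was 16.0 CPM in endothelial-like cells of library 4. Of its 680 UMIs in called cells, 492 (72.4%) were in ductal-like cells and 143 (21.0%) in the far more deeply counted acinar-like cells. The log2 ratio over all other named cells was 6.46, 4.35 and 5.35 in libraries 1 to 3. SCTR had a higher ratio than CFTR in library 1 (6.97) and SLC4A4 in library 2 (4.48).

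A CFTR UMI was found in 31.7%, 24.6% and 25.8% of ductal-like cells at 3000 UMIs per cell, with exact binomial 95% intervals of 20.3% to 45.0%, 18.5% to 31.6% and 20.5% to 31.7%. In stellate-like cells the share was at most 0.195%. The 3 duct intervals overlap. They treat cells as independent, and a difference in share between these libraries was not tested. Without thinning, the shares were 50.0%, 48.0% and 53.2%. RNA in barcodes of 10 to 100 UMIs, taken as free RNA, held 1.14, 6.25, 0 and 0 CPM of CFTR in libraries 1 to 4, below the duct level of the same library in each case. These intervals cover counting error only.

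SLC4A4, the basolateral bicarbonate entry step, had the narrowest range of ratios among the 4 called genes. Ductal-like cells held 163, 294 and 430 CPM in libraries 1 to 3 and 194 CPM in library 4. Acinar-like cells held 0.494, 9.74, 7.51 and 1.84 CPM and stellate-like cells 17.4, 26.1, 23.3 and 26.8 CPM. Neither class overlapped the duct. Free RNA held 3.43 to 20.5 CPM, its highest value in library 3, close to the stellate-like level there. The log2 ratio over all other named cells was 4.56, 4.48 and 4.87.

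The duct was not the only site of SLC4A4. Mesothelial-like cells, the lining of the organ's surface, held 205 CPM (33 cells) in library 3 and 590 CPM (102 cells) in library 4, against medians of 24.7 CPM or less in the other classes outside the duct. The ranges of mesothelial-like and ductal-like cells overlapped. Library 3 is the only library with at least 20 cells of both, and there the duct was called higher with a log2 ratio of 1.07, where 21.6% of genes were. AQP1 was called lower there (-5.69), where 6.71% were. The SLC4A4 ratio was 0.94 after centring and then not called. At 3000 UMIs per cell an SLC4A4 UMI was found in 33.3%, 59.2% and 66.1% of ductal-like cells of libraries 1 to 3. The share was 48.5% to 66.7% in mesothelial-like cells of libraries 3 and 4, and 4.15% to 7.20% in stellate-like cells. It was 0.606% to 1.32% in endocrine-like cells, whose median depth was 8342 to 17319 UMIs.

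The apical exchangers gave little signal in the duct. SLC26A3, which is abundant in the human colon, had 13 UMIs in all called cells, every one in mesothelial-like cells of library 4 (11.6 CPM). The 0 UMIs in ductal-like cells allow at most 5.55, 1.21 and 1.16 CPM in libraries 1 to 3, taking 3 counts as the limit. SLC26A6, an apical exchanger of the duct in mice, had 0, 2.82 and 2.33 CPM in ductal-like cells, from 13 UMIs. Its medians ran from 0.852 CPM in acinar-like to 6.15 CPM in immune-like cells, and the range of every class overlapped the next. Ductal-like over all other named cells its log2 ratio was -1.88, 0.43 and 0.11, and it was not called.

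On the blood side, SLC12A2, the sodium-potassium-chloride cotransporter, was higher in ductal-like than in acinar-like cells of each library. Ductal-like cells had 24.0, 25.4 and 27.9 CPM in libraries 1 to 3 and 62.7 CPM in library 4 (exact 95% Poisson interval 31.3 to 112), whereas acinar-like cells had 0.494, 2.71, 6.32 and 0.921 CPM. Endothelial-like cells had 16.5, 36.2, 42.4 and 13.7 CPM and overlapped the duct. The log2 ratio over all other named cells was 1.83, 1.96 and 1.68, past the limit in each library. The gene was not called, because library 1 held 13 duct UMIs, and it passed without library 1.

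ATP1B1, the sodium pump subunit, marked duct and islet together. It had 714, 720 and 651 CPM in ductal-like cells of libraries 1 to 3 and 735 CPM in library 4, against 539, 643, 417 and 725 CPM in endocrine-like cells. Ductal-like cells were higher inside each of libraries 1 to 3, by log2 ratios of 0.16 to 0.64, under the limit. Acinar-like cells had the lowest median, from 15.1, 42.1, 35.1 and 10.1 CPM, and the log2 ratio of duct over acinar-like cells was 4.18 (range 4.06 to 5.47). Stellate-like cells held 119, 145 and 127 CPM in libraries 1, 2 and 4 and 19.4 CPM in library 3, so that library 3 stood apart from the other libraries of that class and below its acinar-like cells. Free RNA held 76.6, 126, 105 and 68.9 CPM of ATP1B1 in libraries 1 to 4, and its part in the stellate-like values was not tested.

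Endocrine-like cells over all others were called higher for ATP1B1 with a median log2 ratio of 2.42, where 9.16% of genes were called higher. CFTR, SLC4A4 and AQP1 were called lower in the same comparison, at -2.64, -3.03 and -3.63, where 9.93% of genes were.

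Water channels divided between the 2 aquaporins of the list. AQP5, the apical aquaporin of many glands in mice and humans, had 1 UMI in all called cells, in a stellate-like cell. AQP1 was uneven inside the duct and high outside it. Ductal-like cells had 83.2, 31.0 and 2.33 CPM in libraries 1 to 3, from 45, 77 and 6 UMIs, and 177 CPM in library 4. Endothelial-like cells had 420, 215, 183 and 73.2 CPM, and mesothelial-like cells had 170 and 556 CPM in libraries 3 and 4. In libraries 1 to 3 the duct was below endothelial-like cells each time, and in library 4, with 11 duct cells, above them.

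Against all other named cells the ratio of AQP1 changed sign between libraries (log2 1.95, 2.10 and -0.68), and the gene was not called. Duct over endothelial-like cells, AQP1 was the 1 gene of the list called lower, at -2.75 (range -5.79 to -2.32), where 9.50% of genes were. It was called higher in endothelial-like cells over all others, at 5.67 (range 1.61 to 5.97), where 4.77% of genes were. Mesothelial-like over all other cells, in libraries 3 and 4, AQP1 (6.38) and SLC4A4 (4.12) were called higher, where 3.05% of genes were, and SCTR was called lower (-2.50), where 10.8% were.

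**Figure D2:**
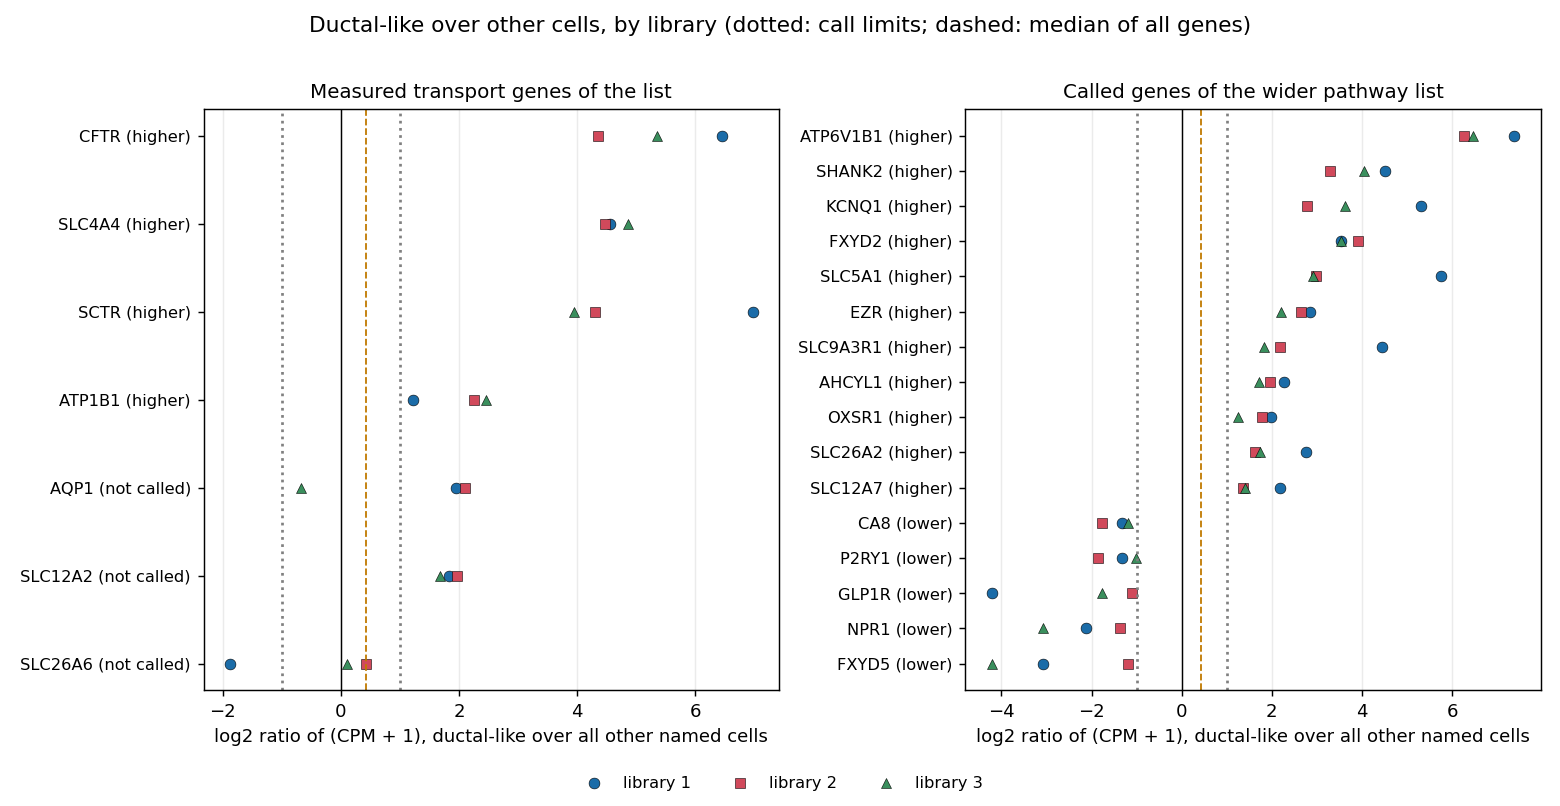
Log2 ratio of CPM + 1, ductal-like over all other named cells, on the x axis, with a symbol for each of libraries 1 to 3. The left panel holds the 7 measured genes of the list and the right panel 16 of the 17 called genes of the wider pathway, with dotted lines at 1 and -1 and a dashed line at 0.43, the median of all genes. CFTR, SLC4A4 and SCTR lie above 3.9 in all 3 libraries, and AQP1 lies on both sides of 0.

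Single comparisons gave the same 4 genes in most cases. An exception was duct over mesothelial-like cells, in library 3 alone. There 5 of 6 measured genes were called higher and 1 lower, where 21.6% and 6.71% of genes were. Duct over stellate-like cells called CFTR (6.52), SCTR (5.91), SLC4A4 (3.45) and ATP1B1 (2.58) higher among 7 measured, where 6.41% of genes were called. Duct over endothelial-like cells called the same 4 higher among 5 measured, where 7.31% were. Duct over immune-like cells called all 4 measured genes, SCTR (6.09), SLC4A4 (5.72), CFTR (5.35) and ATP1B1 (2.55), where 9.99% were. SLC12A2 (1.18 to 2.05) and AQP1 (1.73 to 5.00) were past the limit in each library there but short of the UMI minimum in at least 1. CFTR and SCTR had 5 and 2 UMIs in all stellate-like cells, 19 and 3 in endothelial-like cells and 5 and 2 in immune-like cells. SLC4A4 had 17 UMIs in immune-like cells. These genes were measured there through the duct alone, so the counts of called genes are not read as an excess over the background.

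Duct over endocrine-like cells called 3 of 5 measured genes higher, CFTR (6.22), SLC4A4 (5.98) and SCTR (4.29), where 6.55% of genes were called. ATP1B1 and SLC12A2, at 0.40 and 1.37, were not called there. Duct over acinar-like cells called all 4 measured genes, SLC4A4 (5.66), CFTR (4.67), ATP1B1 (4.18) and SCTR (4.07). Acinar-like cells of library 1 held 0, 2 and 2 UMIs of CFTR, SLC4A4 and SCTR, which were measured there through the duct alone. In that comparison 48.0% of the 5179 genes tested were called higher and the median of all genes was 1.51. After centring, the same 4 stayed called, at 2.94 to 3.99, beside a background of 9.33%. Before centring, SLC12A2 (1.98 to 4.07) and AQP1 (1.51 to 5.82) were again past the limit in each library and short of UMIs. After centring, SLC12A2 ran from 0.86 to 1.70 and AQP1 from 0.39 to 3.43, so neither was past the limit in every library.

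The ductal-like class was made of 2 clusters that differed in these genes. Duct cluster 9, led by PIGR, LGALS2 and KRT5, held 57 of 60, 13 of 179, 15 of 248 and 9 of 11 ductal-like cells in libraries 1 to 4. Duct cluster 16, led by LYPD1, ELF5 and ANKRD1 among the named symbols, held 3, 166, 233 and 2. The clusters were set against each other in libraries 2 and 3, where each had at least 10 cells, a minimum chosen after the cell numbers were seen.

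SCTR marked duct cluster 9. It had 828 and 352 CPM there in libraries 2 and 3, against 17.6 and 24.0 CPM in duct cluster 16, and was called higher with log2 ratios of 5.48 and 3.82, where 0.833% of the 8167 genes tested were. In libraries 1 and 4 duct cluster 9 held 559 and 815 CPM, so all 4 libraries of that cluster were above both libraries of the other. At 3000 UMIs per cell an SCTR UMI was found in 84.6% and 73.3% of duct cluster 9, against 7.23% and 6.87% of duct cluster 16. Libraries 1 and 4, where SCTR was high in the whole ductal-like class, are those where duct cluster 9 held most of its cells.

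SLC4A4 ran the other way. Duct cluster 9 held 92.0 and 167 CPM in libraries 2 and 3, against 307 and 448 CPM in duct cluster 16, and was called lower with a median log2 ratio of -1.57, where 3.61% of genes were. The exact 95% Poisson intervals, 50.3 to 154 and 111 to 241 CPM against 285 to 330 and 422 to 476 CPM, did not overlap. Libraries 1 and 4 of duct cluster 9 were also low, at 161 and 97.3 CPM.

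CFTR was carried by both clusters. It had 59.1 and 197 CPM in duct cluster 9, against 64.3 and 91.6 CPM in duct cluster 16, with a log2 ratio of -0.12 in library 2 and 1.09 in library 3, and was not called. ATP1B1 had 578 and 244 CPM, against 729 and 680 CPM, and was not called either. SLC12A2 had 98.5 and 77.5 CPM (15 and 13 UMIs) in duct cluster 9, against 20.6 and 24.5 CPM, and stayed uncalled for want of UMIs. AQP1 had 342 and 0 CPM, against 10.7 and 2.49 CPM, and 86.4 and 232 CPM in libraries 1 and 4 of duct cluster 9. Library 3 of duct cluster 9, with 15 cells, is thus the 1 library of that cluster at 0.

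**Figure D3:**
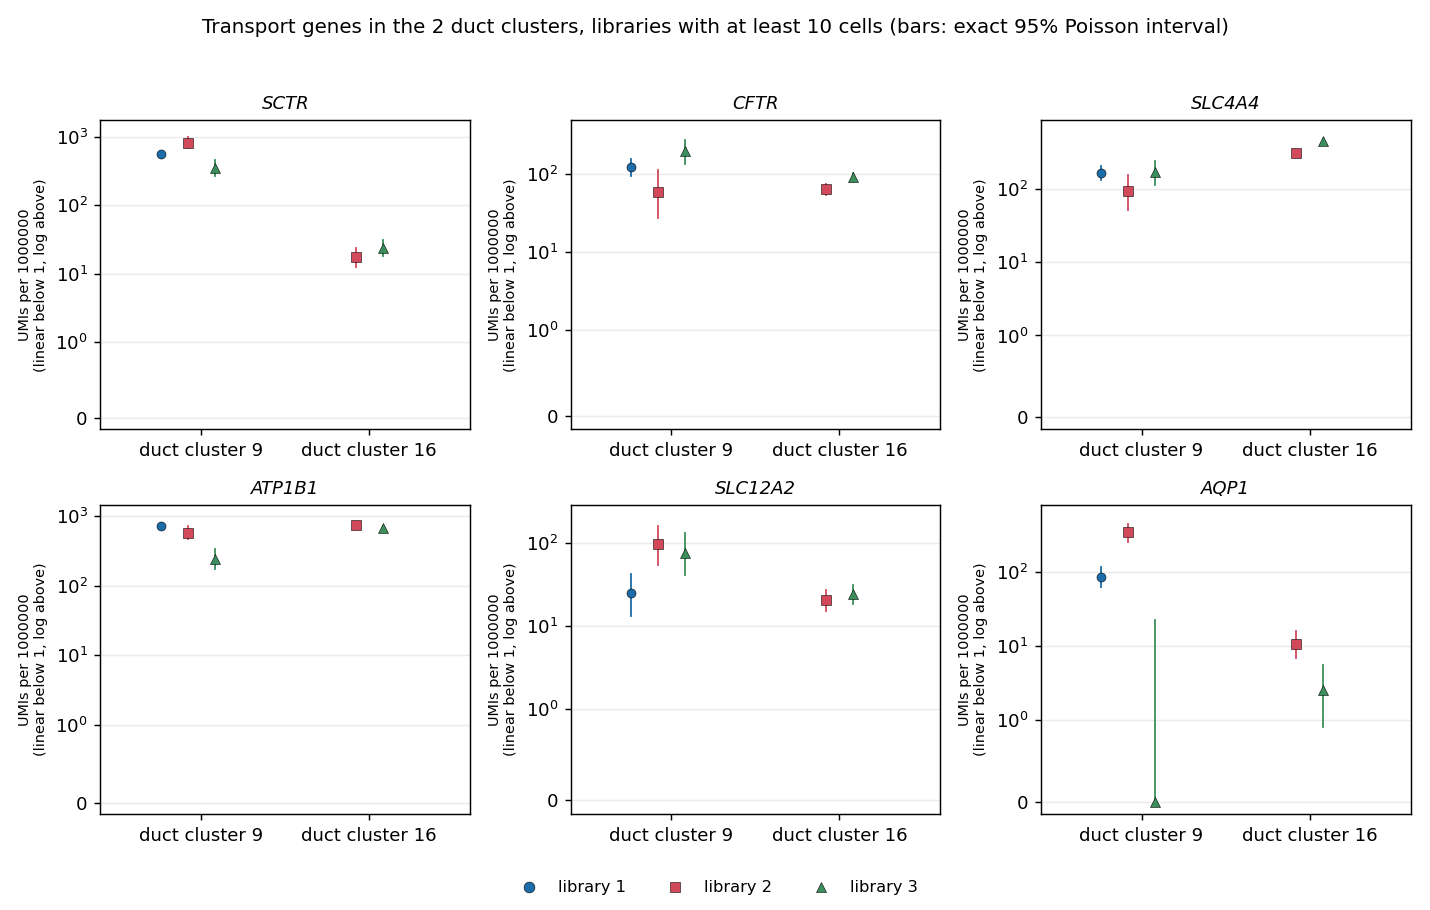
CPM (y axis, linear below 1 and logarithmic above) of 6 transport genes in duct cluster 9 and duct cluster 16, with a symbol per library of at least 10 cells and its exact 95% Poisson interval. SCTR is at 352 CPM or more in duct cluster 9 and at 24.0 CPM or less in duct cluster 16, and SLC4A4 has the opposite order.

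Duct cluster 16 held most of the ductal-like cells with at least 5% acinar enzyme UMIs, 41 in library 2 and 38 in library 3. Those cells were deep, with median depths of 26780 and 20087 UMIs, against 7455 and 6466 UMIs in the other cells of the cluster. SLC4A4 had 88.7 and 155 CPM in them, against 532 and 596 CPM in the rest of duct cluster 16. With them left out of both clusters, SLC4A4 stood at 102 and 167 CPM in duct cluster 9 and at 532 and 596 CPM in duct cluster 16, and the difference was thus larger. SCTR then stood at 869 and 352 CPM, against 27.9 and 34.3 CPM, and ATP1B1 at 635 and 244 CPM, against 1207 and 891 CPM. CFTR in duct cluster 16 was 115 and 127 CPM without them.

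A finer clustering split the 498 ductal-like cells into 7 sub-clusters. Sub-cluster 0 (49 cells), led by SPINK4, LGALS2 and PIGR among the named symbols, had 676 CPM of SCTR, 173 CPM of AQP1, 84.9 CPM of CFTR and 92.2 CPM of SLC4A4. Sub-cluster 2 (27 cells, 26 from library 1), led by CLDN10, ENKUR, CFAP161 and DRC1 among the named symbols, shared the SCTR, at 519 CPM, and differed in the rest. It had 247 CPM of CFTR from 40 UMIs, 346 CPM of SLC4A4 and 0 UMIs of AQP1. ENKUR, CFAP161 and DRC1 are genes of motile cilia and the axoneme. LOC102174148, a leading gene of an acinar-like cluster, was also among its leading genes, and enzyme genes held 1.43% of its UMIs.

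Both sub-clusters hold cells of library 1, where they can be set side by side inside a library. CFTR there was 256 CPM (26 cells) in sub-cluster 2 and 70.7 CPM (25 cells) in sub-cluster 0, SLC4A4 was 346 and 67.6 CPM, and AQP1 had 0 and 42 UMIs. SLC4A4 was highest in sub-clusters 4 and 5, and ATP1B1 in sub-clusters 4 and 2. Sub-cluster 4 (90 cells, 80 from library 2) had 658 CPM of SLC4A4 and 1482 CPM of ATP1B1, and sub-cluster 5 (164 cells, 158 from library 3) had 645 and 904 CPM. Sub-cluster 2 had 1001 CPM of ATP1B1.

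The other 3 sub-clusters carried genes of other programmes. Sub-cluster 3 (100 cells) held 8.27% enzyme UMIs at a median depth of 20381.5 UMIs, with 22.7 CPM of CFTR and 133 CPM of SLC4A4, the lowest CFTR of the 7. Sub-cluster 6 (36 cells), led by the cycling genes CENPF, TOP2A and UBE2C, kept 130 CPM of CFTR and 387 CPM of SLC4A4. Sub-cluster 1 (32 cells), led by COL1A1 and COL1A2, had 48.4 CPM of CFTR and 316 CPM of SLC4A4. The part of cell mixtures in sub-clusters 1, 2 and 3 was not tested.

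**Figure D4:**
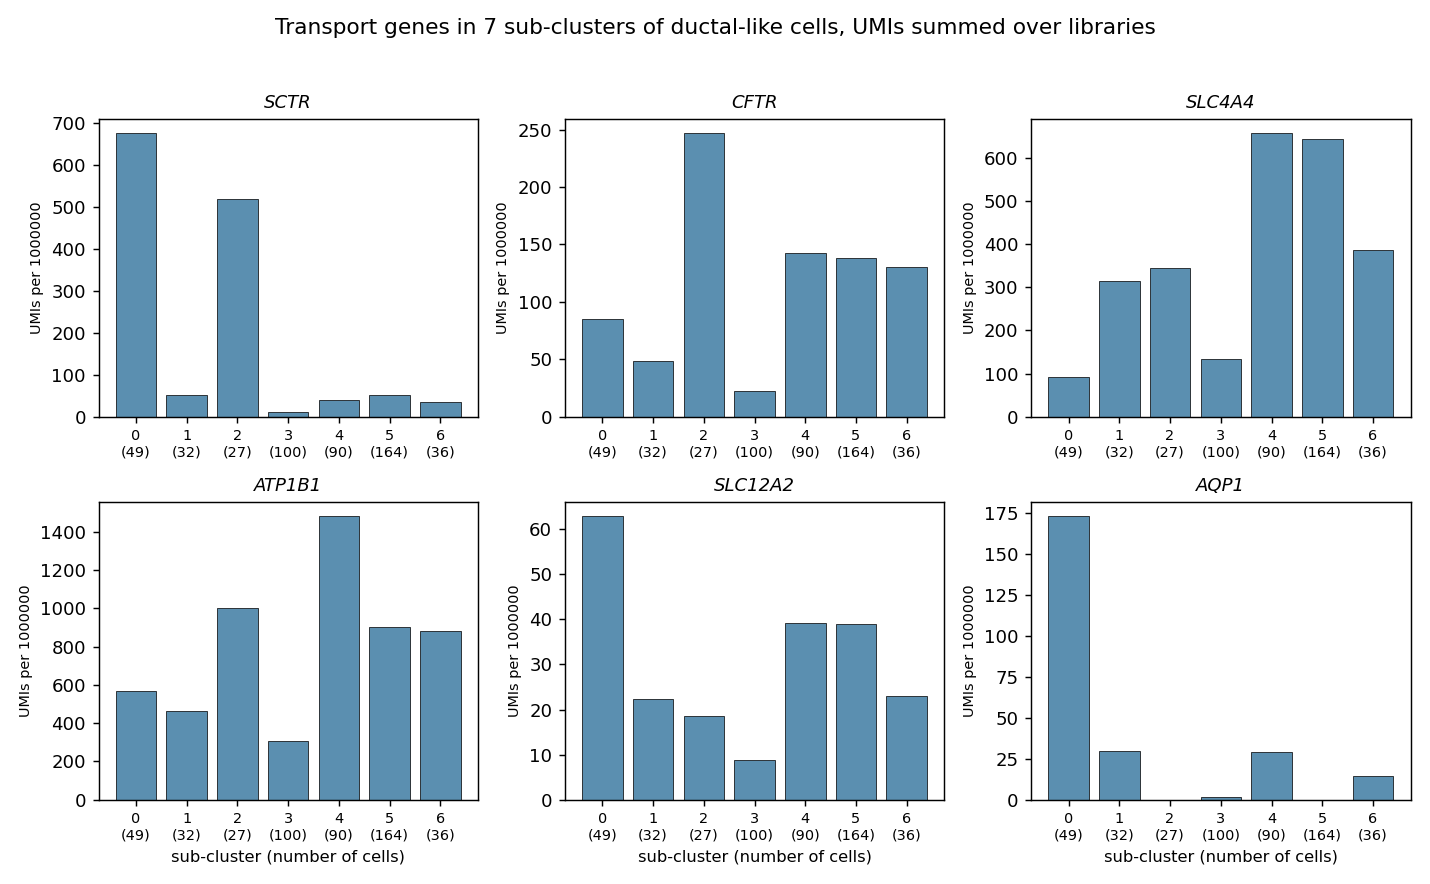
CPM of 6 transport genes (y axis, linear, a scale per panel) in the 7 sub-clusters of ductal-like cells (x axis, number of cells in brackets), as bars of UMIs summed over libraries, with no error shown because most sub-clusters rest on 1 or 2 libraries. SCTR is high in sub-clusters 0 and 2, AQP1 in sub-cluster 0, CFTR in sub-cluster 2, SLC4A4 in sub-clusters 4 and 5, and ATP1B1 in sub-clusters 4, 2 and 5.

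Single duct cells rarely held the whole set. Of the 498 ductal-like cells, 4 (0.803%) had a UMI of all of SCTR, CFTR, SLC4A4, ATP1B1, SLC12A2 and AQP1 without thinning, and 196 (39.4%) had a UMI of 3 of the 6. Of the 94 cells of duct cluster 9, 52 had 4 or more of the 6, against 77 of 404 in duct cluster 16. Sparse counts limit such shares, since a gene of about 100 CPM gives less than 1 UMI in a cell of median depth.

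The islet site of SCTR was the delta-like cluster, named from somatostatin (SST) and other delta cell markers. It also held insulin (INS) RNA, at 66659, 29394, 39538 and 156191 CPM in libraries 1 to 4. In library 4 that was above SST, at 140208 CPM. The source of the INS RNA was not tested. Delta-like cells had 107, 52.7, 71.5 and 36.9 CPM in libraries 1 to 4 (75, 27, 82 and 18 cells), against 0, 0.731, 0.253 and 0 CPM in beta-like cells. The 2 did not overlap in any library. Delta-like cells were below the ductal-like class in libraries 1, 2 and 4, and above it in library 3, with 71.5 CPM, against 45.4 CPM. In libraries 2 and 3 they were above duct cluster 16, at 17.6 and 24.0 CPM. Of the 150 SCTR UMIs in endocrine-like cells, 133 were in delta-like cells and 0 in the 223 alpha-like cells. SLC4A4 had the same pattern at a lower level, with 25.1, 42.2, 51.7 and 36.9 CPM in delta-like cells, against 0, 3.41, 1.26 and 0.0937 CPM in beta-like cells. Neither gene reached 20 UMIs in every delta-like library, so no call was made.

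ATP1B1 had another order within the islet. Beta-like cells had 955, 836, 553 and 799 CPM, against 405, 443, 286 and 339 CPM in delta-like cells, and were higher in all 4 libraries. Beta-like over the other endocrine-like cells, the log2 ratio was 1.40 (range 0.84 to 1.58) and was not called. The ATP1B1 level of the whole ductal-like class, 651 to 735 CPM, lay inside the range of beta-like libraries and above every delta-like library. This level depended on the enzyme-rich cells and on the cluster. Without cells of at least 5% enzyme UMIs, duct cluster 16 held 1207 and 891 CPM in libraries 2 and 3, above beta-like cells there. Duct cluster 9 then held 739, 635 and 244 CPM in libraries 1 to 3, below beta-like cells of the same libraries.

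Endothelial-like cells split by vessel type. Blood vessel endothelial-like cells had 1110, 349 and 272 CPM of AQP1 in libraries 1 to 3 (44, 69 and 30 cells), against 147, 0 and 0 CPM in lymphatic endothelial-like cells (91, 35 and 15 cells). AQP1 was called higher in blood vessel cells in libraries 1 and 2, the 2 with enough cells, where 5.12% of genes were. SLC12A2 followed, with 50.9, 57.5 and 59.2 CPM in blood vessel cells, against 2.88, 2.14 and 8.05 CPM in lymphatic cells. CFTR was the reverse at a low level: 1 UMI in the 149 blood vessel cells (0.759 CPM), against 18 UMIs in the 195 lymphatic cells (10.7 CPM), which came from 3 of the 4 libraries.

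**Figure D5:**
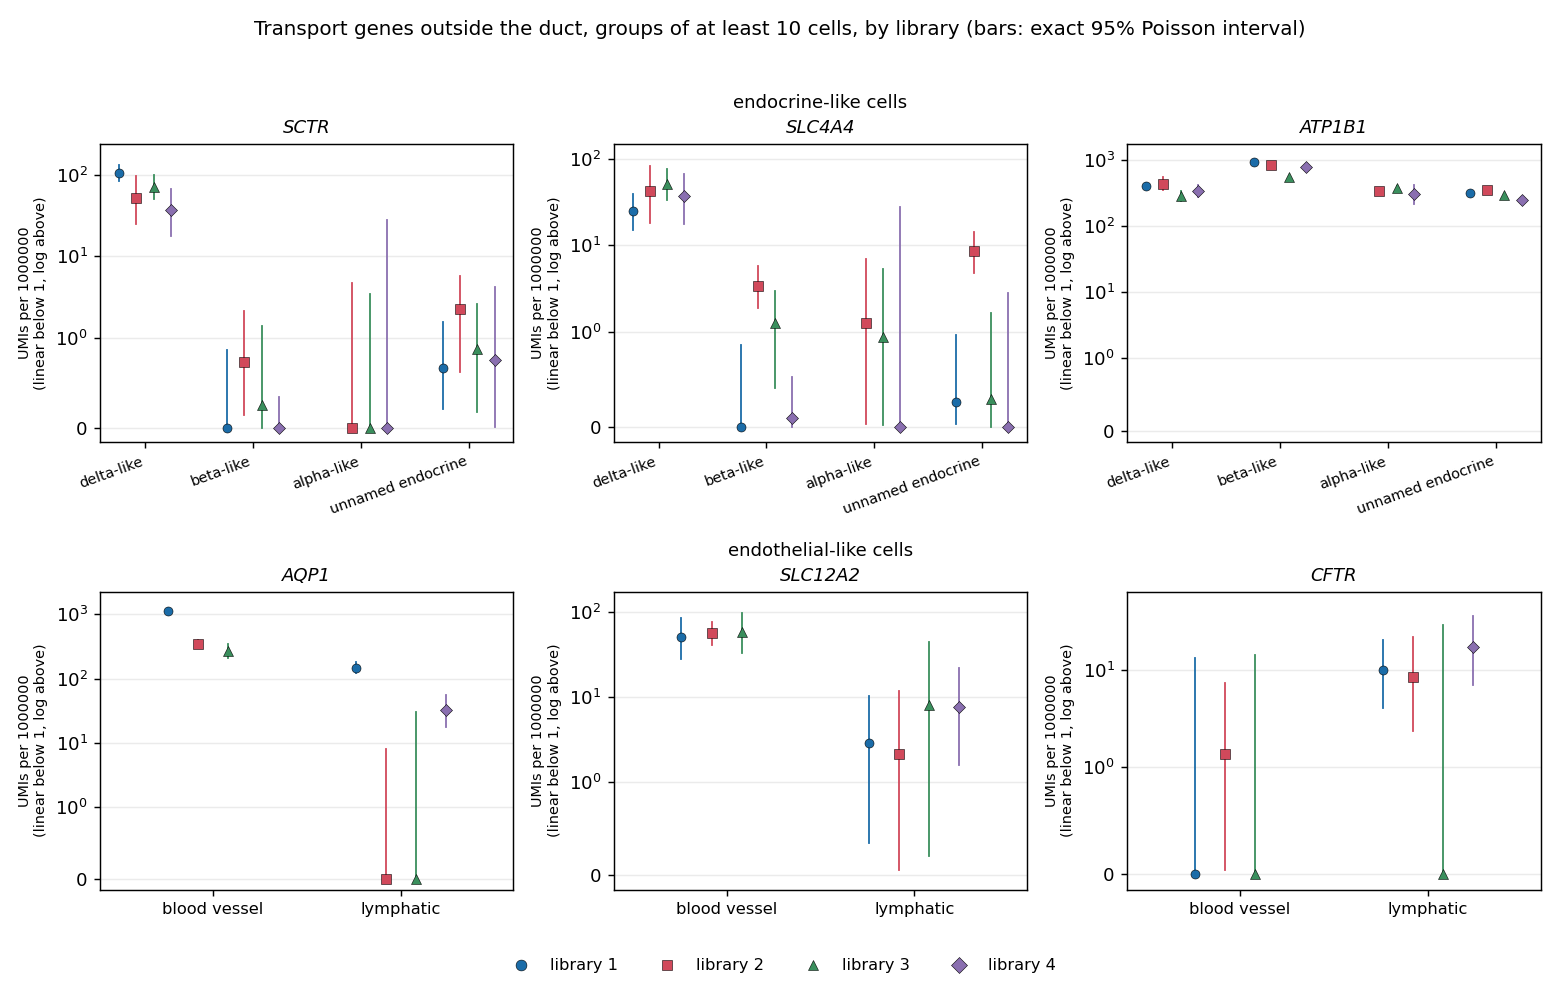
CPM (y axis, linear below 1 and logarithmic above) of SCTR, SLC4A4 and ATP1B1 in groups of endocrine-like cells (top) and of AQP1, SLC12A2 and CFTR in groups of endothelial-like cells (bottom), with a symbol per library of at least 10 cells and its exact 95% Poisson interval. SCTR is at 36.9 CPM or more in delta-like cells and under 1 CPM in beta-like cells, and AQP1 is higher in blood vessel cells in libraries 1 to 3.

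Around these genes, a list of 145 further genes of epithelial ion and water transport was read, of which 138 matched by symbol. In ductal-like over all other named cells 77 were measured: 12 were called higher, 5 were called lower and 60 were not called. The background was 5.11% higher and 5.49% lower. The median log2 ratio of the measured pathway genes was 0.47, beside 0.43 over all genes. After centring, 10 were called higher and 7 lower, where 3.10% and 9.32% of genes were. The list was chosen with earlier results of these data known, and a gene can be measured through the duct alone. The count called higher is thus not read as an excess over the background. The median of the measured pathway genes was close to that of all genes.

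The highest ratio belonged to ATP6V1B1, a subunit of the proton pump that is found in acid-secreting epithelia, at a median log2 ratio of 6.47 (range 6.26 to 7.38). It had 172, 146 and 230 CPM in ductal-like cells of libraries 1 to 3, against at most 2.90 CPM in acinar-like cells. The scaffold genes SHANK2 (4.05), EZR (2.65), which encodes ezrin, and SLC9A3R1 (2.19), which encodes NHERF1, link membrane transporters to the cytoskeleton, and 3 of the 7 measured scaffold genes were called higher. EZR had 314, 217 and 272 CPM in ductal-like cells, against 694 and 2197 CPM in mesothelial-like cells of libraries 3 and 4.

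Of the 9 measured genes of cation-chloride cotransport and the sodium pump, 3 were called higher and 1 lower. FXYD2, a regulatory subunit of the pump, had a ratio of 3.53. KCNQ1, a potassium channel, had 3.62 and the glucose cotransporter SLC5A1 had 2.98. SLC5A1 was uneven across libraries, with 96.1, 10.5 and 16.7 CPM in ductal-like cells. Among controls of transport, AHCYL1, also known as IRBIT, had 1.95 and the kinase gene OXSR1 1.77. SLC26A2, a sulfate transporter, had 1.73 and SLC12A7, a potassium-chloride cotransporter, 1.41. OXSR1 and SLC12A7 were not called after centring.

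The 5 genes called lower were FXYD5 (-3.08), the natriuretic peptide receptor NPR1 (-2.12), the incretin receptor GLP1R (-1.77), the purinergic receptor P2RY1 (-1.33) and CA8 (-1.32), a carbonic anhydrase relative without that enzyme activity. None of the 10 measured chloride channel genes beside CFTR was called in either direction by this rule. Of the 4 measured carbonic anhydrase genes 0 were called higher and 1 lower. Their median log2 ratio was 1.21, and 0.81 after centring, beside 0.43 over all genes tested before centring. Of the 11 measured receptor genes beside SCTR 0 were called higher and 3 lower.

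Within the duct, the same pathway list gave 1 gene called higher and 8 called lower in duct cluster 9 over duct cluster 16, of 46 measured, where 0.833% and 3.61% of genes were. Those 9 were named after their values were seen. The higher gene was EZR (1.27), with 479 and 602 CPM in libraries 2 and 3 of duct cluster 9, against 199 and 249 CPM in duct cluster 16. After centring EZR was not called (0.97), and 0 genes were called higher and 11 lower, where 0.661% and 5.23% of genes were. The lower genes included the chloride channel ANO1 (-4.53), TTYH1 (-3.90), FXYD3 (-3.85), FXYD1 (-2.14), FXYD2 (-1.96) and the receptors VIPR2 (-2.05) and CCKBR (-1.82). VIPR2, which binds vasoactive intestinal peptide, had 6.57 and 23.8 CPM in duct cluster 9, against 51.0 and 61.4 CPM in duct cluster 16, the opposite order to SCTR.

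The largest of these differences was AQP8 (-6.78), with 0 CPM in both libraries of duct cluster 9, against 166 and 71.3 CPM in duct cluster 16. Acinar-like cells held 335 and 238 CPM of AQP8 in the same libraries. Duct cluster 16 without its cells of at least 5% enzyme UMIs held 23 and 19 UMIs of AQP8 in 125 and 195 cells, 11.8 CPM in library 3.

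Likeness of pattern was measured by Pearson's r of log2(CPM + 1) over the 25 pairs of class and library with at least 20 cells, among 14749 genes. The pairs share libraries and class composition, so these values are descriptions only. CFTR was most like LIPH (0.914), PDZK1IP1 (0.900) and LOC102175184 (0.876). SLC4A4 was most like GPAM (0.911), KANK4 (0.901) and VEPH1 (0.887). AQP1 was most like CX3CL1 (0.907), LTBP2 (0.905) and ABLIM3 (0.903).

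SCTR had the highest value of the list, with CFAP221 (0.972), followed by BARX2 (0.949) and PLCH1 (0.944). ATP1B1 was most like SIK2 (0.926), TSPYL1 (0.890) and B3GALT4 (0.888), SLC12A2 like USP42 (0.899), AVL9 (0.894) and TMEM94 (0.890), and SLC26A6 like LOC102173607 (0.867), TCP11L1 (0.842) and LOC102176031 (0.794). Within the list, CFTR had r of 0.733 with SLC4A4 and 0.731 with SCTR, whereas SCTR had 0.071 with AQP1.

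CFAP221, a cilia gene, is also the neighbour of SCTR in the RefSeq gene order. It had 24 UMIs in duct cluster 9 and 22 in delta-like cells, where SCTR had 585 and 133. An SCTR UMI was found in 14 of the 14 duct cluster 9 cells with a CFAP221 UMI, and in 86 of all 94 cells of that cluster. It was found in 12 of 20 such delta-like cells (93 of all 202) and in 7 of 21 such cells of duct cluster 16 (74 of all 404). TMEM37, the neighbour on the other side, had 158 and 113 CPM in duct cluster 9 in libraries 2 and 3, against 22.7 and 25.7 CPM in duct cluster 16. How the counting assigned reads between neighbouring genes is not given in the sources used here, and its part in these values was not tested.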

How the data were processed

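The authors deposited raw UMI counts for every gene in every barcode as 1 unfiltered matrix. Its header, per the file headers, names Cell Ranger 5.0.1, while the processing notes of the submitters list versions 3.1.0 of Cell Ranger and 3.1.1 of Seurat. For genome build, annotation and depth equalisation, no statement was found: not given in the sources used here. The 10 genes, the marker sets and the pathway list were chosen with earlier results of these data known.

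Cells were barcodes with more UMIs than 1/10 of the 99th percentile of the top 8000 of their library and at least 500 genes. Scrublet (scanpy 1.11.5) marked 77, 2, 111 and 4 doublets in libraries 1 to 4, so almost none were removed from libraries 2 and 4, and 17 cell barcodes occur in more than 1 library. Clustering used 2000 variable genes, 30 components, 15 neighbours and Leiden resolution 1 (igraph 0.11.9), jointly and with no batch correction; sub-clustering used resolution 0.5. Class names ending in "-like" are rebuilt here, from 3 or more markers that reached 2-fold the mean of the remaining clusters. Counts were summed per class and library, and ratios taken on log2(CPM + 1), which understates changes of low genes.

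The text names the 10 symbols, the called pathway genes (at most 20) and, for each symbol with at least 100 UMIs, the 3 genes most alike in pattern; any other was picked once its values had been seen. Of the called pathway genes, 1 is not reported here. Simulated counts of 27137 genes, 200 of them changed, were made at a dispersion of 0.05. Calls for ductal-like over all other cells recovered 100% of log2 3 changes and 53% of log2 1.5 changes, with 2 unchanged genes called. Over endocrine-like cells, 50% of log2 1.5 changes were recovered and 12 unchanged genes called. AQP1 in the duct, at 2.33 to 83.2 CPM in libraries 1 to 3, varied more than that dispersion, so the recovery does not cover such genes. Alternatives covered the pseudocount, centring, minimum cells and UMIs, the ratio limit, cell calling, doublets, clustering, enzyme-rich cells and each library left out.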

Additional observations from a re-analysis of the deposited data

Results flagged for a closer look

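The 563 cells that fell into no named class entered no comparison. They numbered 23, 25, 124 and 391 in libraries 1 to 4, and 6 of the 9 transport genes exceeded the limit that 3 counts set there, 0.565 CPM. Of the 563 cells, 413 formed a cluster with markers of both neutrophils and endocrine cells. The other 150 had endocrine markers and were led by cycling genes. ATP1B1 had 429 CPM over all 563 cells and 724, 326, 234 and 521 CPM by library. SLC12A2 had 11.5 CPM, SLC4A4 5.46 CPM, SLC26A6 2.64 CPM, AQP1 2.45 CPM and SCTR 2.07 CPM. The SCTR value rests on 11 UMIs in libraries 2 and 3. CFTR had 1 UMI in them.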

How the results depend on the processing

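No paired analysis was possible because no label ties a library to an animal, so no replicate number can be matched. Counts were recalculated for transport genes called higher in ductal-like cells over each other class, and for pathway genes over all other named cells. They stayed within 1.5 times their value in 100 of 105 recalculations. With no minimum of UMIs, 5 transport genes in place of 3 were called over endocrine-like cells and 29 pathway genes in place of 12. At a log2 limit of 2, 6 pathway genes were called. Leaving out 1 library in turn gave 12 to 24 pathway genes, with 24 without library 1. Without duct cluster 9, an alternative added after seeing the data that leaves libraries 2 and 3, 24 were called. Fewer libraries have to pass in both cases. The share of all genes called under each of these settings is not given here, so the counts cannot be set against a background. For single genes, SLC12A2 was called over all other named cells with no minimum of UMIs, without library 1 and without duct cluster 9 (1.83, 1.82 and 1.59), and AQP1 without library 3 (2.03). ATP1B1 was not called after centring or at a limit of 2. With cells of at least 1000 UMIs, library 4 joined and CFTR had too few UMIs in it to be called, at a median of 5.55. Shares of cells move with depth: the CFTR median was 25.8% at 3000 UMIs, 19.8% at 2000 and 50.0% without thinning.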
